A study of Mus musculus with 2 samples.

Results

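The SR protein kinases described here are 8 genes: Clk1, Clk2, Clk3, Clk4, Srpk1, Srpk2, Dyrk1a and Prpf4b. They were chosen by their symbols, and each symbol had 1 row among the 32285 genes of the count tables. The RNA came from E14 mouse embryonic stem cells of the 129/Ola background, cultured in medium with serum and leukaemia inhibitory factor. The control group was 1 library of cells transfected with a control siRNA, and the sonKD group was 1 library of cells transfected with an siRNA against Son, which encodes a scaffold protein of nuclear speckles. Cells of both groups were exposed to Lipofectamine2000 lipoplexes, detached after a day and frozen. After thawing they were stained with the dye 7-AAD, sorted and barcoded with the Single Cell 3′ v3 chemistry of 10x Genomics. An siRNA lowers RNA in a mixed, transiently transfected population, and the protein measurements named in the labels were not analysed here. With 1 library per group there was no replicate and no test, and intervals given here cover counting error only.

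SR proteins are splicing factors whose tails of alternating arginine and serine residues are phosphorylated and dephosphorylated in each round of splicing. SRPK family kinases act mainly in the cytoplasm, where phosphorylation lets the import receptor transportin carry SR proteins into the nucleus and its speckles. CLK family kinases act in the nucleus, where further phosphorylation releases SR proteins from speckles to sites of splicing. Clk1 and Clk4 are textbook cases of genes whose own RNA is held in the nucleus with introns still in place and is spliced to completion when kinase activity drops.

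The 4 CLK kinases carry the LAMMER signature, a peptide of the kinase domain that names the family and that Clk3 has in a variant form. Its coding stretch of 33 bases, read from the GENCODE M21 transcripts, is shown because it sets the CLK genes apart from the other 4 kinases, in which the signature was not found. Capitals mark the 13 positions at which the 4 genes do not all share a base.
Clk1: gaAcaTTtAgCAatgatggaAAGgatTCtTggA
Clk2: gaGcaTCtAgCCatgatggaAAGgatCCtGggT
Clk3: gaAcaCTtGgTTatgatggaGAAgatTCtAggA
Clk4: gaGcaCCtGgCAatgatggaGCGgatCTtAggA
Over this stretch Clk1 and Clk2 were the nearest pair, with 6 differing bases, and Clk2 and Clk3 the farthest, with 11. Clk1 and Clk4, the pair best known for intron-retaining RNA, differed at 9 bases.

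The chemistry is designed to read the 3′ ends of transcripts, so it matters whether those ends are unique to each gene. Of the 31-base words in the last 500 bases of the members' coding transcripts, 8.64% were shared with other genes for Srpk1, and at most 0.625% for each of the other 7 kinases. Srpk1 counts can therefore be affected by how shared reads were assigned. Clk1 (chromosome 1, 58410189 to 58424066, minus strand, GRCm38), Clk2 (chromosome 3, 89164795 to 89176921, plus strand) and Srpk1 (chromosome 17, 28587648 to 28622709, minus strand) overlapped no other annotated gene. Clk3 (chromosome 9, 57750624 to 57765860, minus strand) overlapped Edc3, Clk4 (chromosome 11, 51261730 to 51281766, plus strand) overlapped BC049762, Srpk2 (chromosome 5, 23503264 to 23684617, minus strand) overlapped Kmt2e and Prpf4b (chromosome 13, 34875302 to 34906064, plus strand) overlapped Gm36839, each on the opposite strand. On their own strands Clk4 overlapped Gm25082, Srpk2 overlapped Gm24009 and Gm43566, and Dyrk1a (chromosome 16, 94570010 to 94695517, plus strand) overlapped Gm15971. Values of the overlapping kinases are uncertain to that extent.

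Cells were barcodes that had 2500 or more UMIs (unique molecular identifiers, each marking 1 captured molecule) and 1000 or more genes, with mitochondrial UMIs making up 10% at most. There were 4978 control cells with 40902904 UMIs and 2731 sonKD cells with 32032551 UMIs, and 2 barcodes occurred in both sets. Median depth differed, at 7737.5 UMIs per control cell and 11612 per sonKD cell. All 8 pluripotent stem cell markers were above 10 CPM (counts scaled to a total of 1000000 UMIs over the same kind of barcode in the library) in cells of both libraries, and their summed level was 8127 and 8874 CPM. Fibroblast or feeder markers summed to 3.18 and 3.65 CPM, with 2 and 3 of 6 at 0, and primitive endoderm markers to 5.82 and 4.93 CPM, with none of 5 at 0. Trophectoderm markers summed to 66.6 and 87.8 CPM, and 2 of 6 were above 10 CPM. Son, the targeted gene, stood at 169 CPM in the control cells and 106 CPM in those of sonKD, so sonKD held 62.7% of the control level (60.2% to 65.4%).

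All 8 kinases were detected in cells, over a range of about an order of magnitude. Their summed level was 611 CPM in control cells and 559 CPM in those of sonKD. Levels in CPM are not divided by transcript length, since 3′ counting is designed to take each molecule near its end. Whether reads within introns were also counted is not given in the sources used here. The order of the levels was the same in both libraries: Srpk1, Prpf4b, Srpk2, Clk1, Dyrk1a, Clk2, Clk4 and Clk3. Only Clk4 and Clk3 in control, at 22.8 and 22.6 CPM, were neighbours whose counting intervals overlapped.

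**Figure D1:**
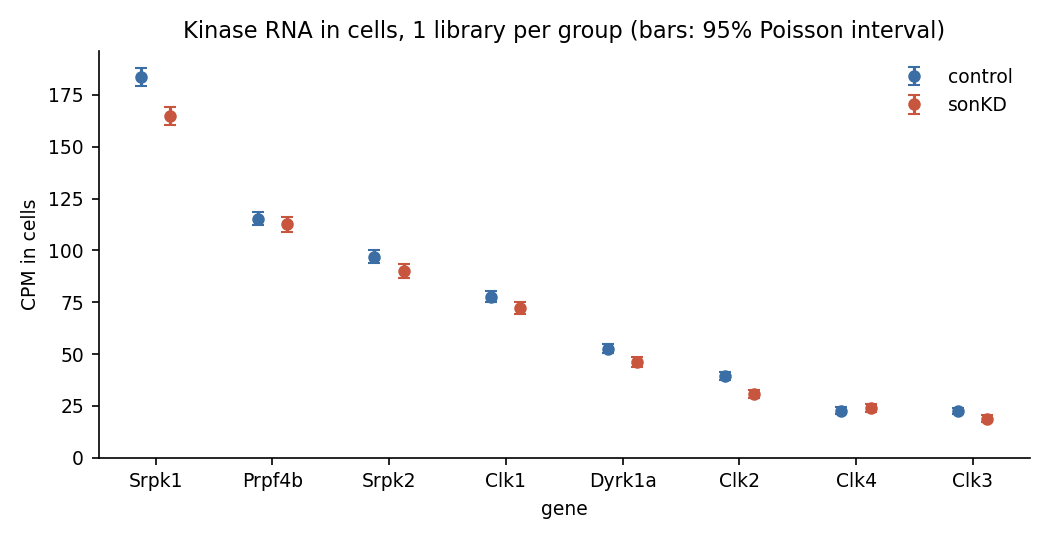
Level of each kinase in cells (vertical axis, CPM, starting at 0) for the control and sonKD libraries, with bars for the 95% Poisson interval of the count. Srpk1 has the highest level in both libraries, at 184 and 165 CPM, and the levels run down to Clk3, at 22.6 and 18.9 CPM.

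In cells the kinases were slightly lower in sonKD than in control, much as genes in general were. The median log2 ratio of the 8 kinases was -0.13, beside -0.12 over the 8063 genes averaging 10 CPM or more, of which 5% lay under -0.40 and 5% above 0.25. Ratios below 0 were seen for 7 of the 8 kinases and 74.9% of the tested genes, and 4 kinases lay above and 4 below the median of all tested genes. In place of a test a size limit was used, a ratio of 5 to 4 between the libraries, or 0.32 on the log2 scale. Clk2 was lower by at least that size and no kinase was higher. Among all tested genes 10.2% were lower and 3.50% higher by that size, so 1 lower kinase of 8 is near the background.

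The 4 CLK genes spread over much of the range of the 8 kinases. Clk1 had 3174 UMIs in control cells (77.6 CPM) and 2309 in sonKD cells (72.1 CPM), a log2 ratio of -0.11 (-0.18 to -0.03), almost exactly at the median of all genes. Clk2 had 1611 UMIs (39.4 CPM) and 991 UMIs (30.9 CPM), a log2 ratio of -0.35 (-0.46 to -0.23), at percentile 7.81 of the tested genes. Clk3 had 926 UMIs (22.6 CPM) and 604 UMIs (18.9 CPM), a log2 ratio of -0.26 (-0.41 to -0.11). Clk4 had the highest ratio of the 8 kinases, with 932 UMIs (22.8 CPM) in control and 768 UMIs (24.0 CPM) in sonKD, a log2 ratio of 0.07 (-0.07 to 0.21). Counting intervals of the 2 libraries' ratio excluded 0 for Clk1, Clk2 and Clk3 but not for Clk4. Clk2 did not reach the size limit when library totals were scaled by edgeR's TMM factors, by DESeq2 size factors or without mitochondrial and ribosomal protein genes, or with a mitochondrial limit of 5% or 25%.

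Srpk1 and Srpk2, the kinases of SR protein import, were among the 3 most abundant members. Srpk1 had 7506 UMIs in control cells (184 CPM) and 5274 in sonKD cells (165 CPM), a log2 ratio of -0.16 (-0.21 to -0.11). Srpk2 had 3967 UMIs (97.0 CPM) and 2886 UMIs (90.1 CPM), a log2 ratio of -0.11 (-0.18 to -0.04). Srpk2 sat at the median of all genes and Srpk1 just below it.

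Dyrk1a encodes a dosage-sensitive kinase of the Down syndrome region that phosphorylates splicing factors among many substrates, and Prpf4b encodes a kinase that acts on spliceosome proteins as the complex matures. Dyrk1a had 2147 UMIs in control cells (52.5 CPM) and 1473 in sonKD cells (46.0 CPM), a log2 ratio of -0.19 (-0.29 to -0.09). Prpf4b had 4715 UMIs (115 CPM) and 3603 UMIs (112 CPM), a log2 ratio of -0.04 (-0.10 to 0.03). Its sign depended on the scaling: it was 0.05 with TMM factors, 0.05 with DESeq2 size factors and 0.04 without mitochondrial and ribosomal protein genes. Those scalings moved the median of all genes by up to 0.090 on the log2 scale and left each kinase's distance from that median as it was.

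The libraries differed in depth, so the ratio was also taken within groups of cells of like depth, a split chosen after the values had been seen. Among cells of 5000 to under 10000 UMIs (3475 control, 675 sonKD), the log2 ratio was -0.34 for Srpk1, -0.31 for Clk2, -0.29 for Prpf4b, -0.27 for Dyrk1a, 0.13 for Clk1 and 0.37 for Clk4. Among cells of 10000 to under 20000 UMIs (940 control, 1770 sonKD), it was -0.21 for Srpk1, -0.47 for Clk2, 0.05 for Prpf4b, -0.37 for Dyrk1a, -0.20 for Clk1 and -0.01 for Clk4. Srpk2 was at -0.19 and -0.24 and Clk3 at -0.22 and -0.41 in these groups. Srpk1, Srpk2, Dyrk1a, Clk2 and Clk3 thus kept their sign between them and Clk1, Clk4 and Prpf4b did not. Counting intervals included 0 for Clk1 (-0.02 to 0.28) and Clk3 (-0.54 to 0.08) in the shallower group. In the deeper group they did for Clk4 (-0.22 to 0.21) and Prpf4b (-0.05 to 0.14), so the changes of sign are not resolved. The median of all tested genes was not taken within depth groups. The outer groups held fewer cells, 514 and 172 under 5000 UMIs and 49 and 114 from 20000 UMIs, and there the counting interval of each kinase's ratio included 0. Under 5000 UMIs the ratio was above 0 for Dyrk1a (0.31), Prpf4b (0.31), Srpk2 (0.26), Clk3 (0.22) and Clk1 (0.20), and from 20000 UMIs for Clk1 (0.21), Dyrk1a (0.13), Clk2 (0.06) and Prpf4b (0.06). Srpk1 alone was below 0 in all 4 depth groups, with -0.20 and -0.07 in the outer ones.

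**Figure D2:**
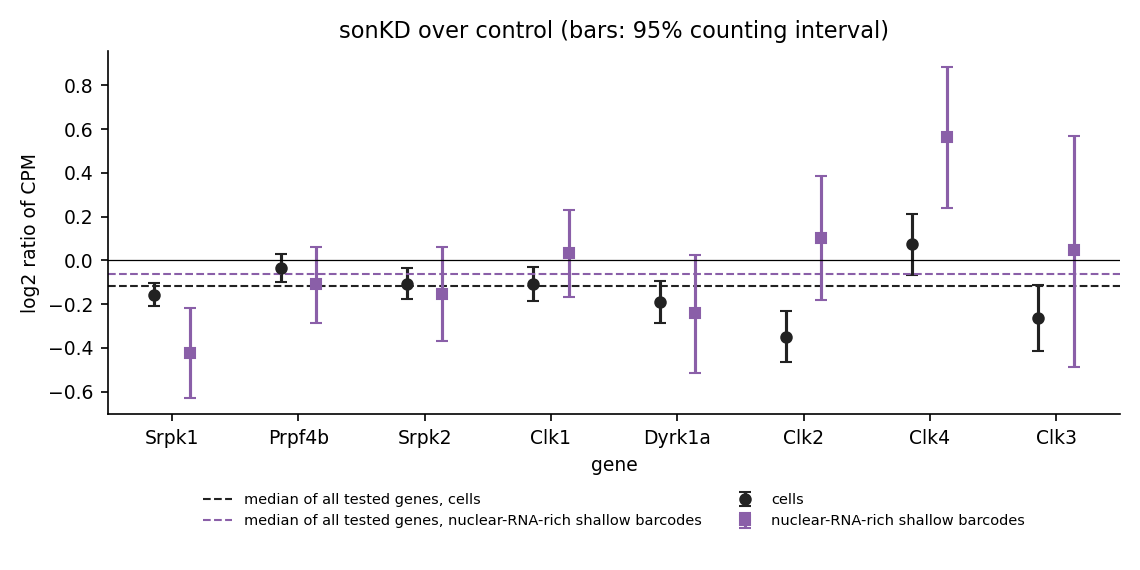
Log2 ratio of CPM in sonKD over control for each kinase, in cells and in nuclear-RNA-rich shallow barcodes, with bars for the 95% counting interval and dashed lines at the median of all tested genes. In cells the kinases lie between -0.35 and 0.07, and in the nuclear-RNA-rich barcodes Clk4 lies highest at 0.56 and Srpk1 lowest at -0.42.

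The files also hold shallow barcodes, with at least 700 but under 2500 UMIs. Those with a Malat1 share of UMIs at or above the 75th percentile of the same library's cells are called nuclear-RNA-rich here, Malat1 being a long noncoding RNA kept in the nucleus. There were 3306 such barcodes in control (5366772 UMIs) and 1318 in sonKD (2410752 UMIs), and 1 barcode occurred in both sets. Malat1 chose them, so its level is no result. Of the other nuclear RNAs, Neat1 was at 87.2 CPM in cells and 211 CPM in these barcodes in control, and at 224 and 524 CPM in sonKD. Kcnq1ot1 was at 182 and 257 CPM in control and at 168 and 249 CPM in sonKD. These barcodes were also rich in mitochondrial RNA: their median mitochondrial share was 16.5% in control and 18.8% in sonKD, against 3.65% and 4.10% in cells. Ribosomal protein genes made up 11.2% and 12.3% of their UMIs, against 19.1% and 22.5% in cells. The part of these shifts in the kinase values was not tested.

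Most of the kinases took a larger share of the RNA in nuclear-RNA-rich barcodes than in cells. The median log2 ratio of these barcodes over cells was 0.58 for the 8 kinases in control and 0.51 in sonKD, beside 0.09 and 0.13 over all tested genes. At least 1.5-fold higher were 4 kinases in control (Clk1, Clk2, Clk4 and Prpf4b) and 3 in sonKD (Clk1, Clk2 and Clk4), where 15.9% and 23.0% of all tested genes were. In control Clk2 (0.594) and Prpf4b (0.591) were only just past that size, which is 0.585 on the log2 scale. The control count was 3 with all shallow barcodes and 5 at a mitochondrial share of at most 10%, settings for which no share of all tested genes was taken. At least 1.5-fold lower were none in control and 1 in sonKD (Srpk1), where 12.4% and 15.1% of all tested genes were. Srpk1 at -0.60 was just past that size (0.58 on the log2 scale) and did not reach it with a common Malat1 limit, above 10% mitochondrial share, or with totals without mitochondrial genes and either ribosomal protein genes or Malat1. Both libraries come from their own cells and droplets, and across the 8063 genes this ratio had a Pearson r of 0.908 between them, given as a description since genes are not replicates.

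Clk4 had the largest ratio in each library. It stood at 22.8 CPM in control cells and 38.2 CPM (205 UMIs) in control nuclear-RNA-rich barcodes, a log2 ratio of 0.75 (0.52 to 0.97). In sonKD it was at 24.0 CPM in cells and 56.4 CPM (136 UMIs) in those barcodes, a log2 ratio of 1.23 (0.96 to 1.5). Clk1 was at 124 CPM (666 UMIs) and 127 CPM (306 UMIs) in the nuclear-RNA-rich barcodes of control and sonKD, log2 ratios over cells of 0.68 (0.55 to 0.80) and 0.82 (0.64 to 0.99). Clk2 was at 59.4 CPM (319 UMIs) and 63.9 CPM (154 UMIs), log2 ratios of 0.59 (0.42 to 0.77) and 1.05 (0.79 to 1.29). Clk3, the least abundant, stood apart from its family: it was at 18.4 CPM (99 UMIs) and 19.1 CPM (46 UMIs), with log2 ratios of -0.30 (-0.61 to 0.00) and 0.02 (-0.45 to 0.45). Its counts were too few to tell either ratio from 0. In sonKD the ratio was -0.20 over all shallow barcodes, -0.19 with the Malat1 limit at the median of cells, -0.14 above 10% mitochondrial share and 0.68 at or below it.

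The SRPK pair split in these barcodes. Srpk1 took a smaller share there than in cells, at 146 CPM (781 UMIs) in control and 109 CPM (262 UMIs) in sonKD, log2 ratios over cells of -0.33 (-0.44 to -0.23) and -0.60 (-0.78 to -0.42). Srpk2 took a larger share, at 117 CPM (628 UMIs) and 105 CPM (254 UMIs), log2 ratios of 0.27 (0.15 to 0.39) and 0.23 (0.04 to 0.41). Both findings leaned on how shallow barcodes were chosen: with a mitochondrial share of at most 10%, Srpk1 in control was at 0.01, and with all shallow barcodes Srpk2 in sonKD was at -0.06. Dyrk1a was at 77.5 CPM (416 UMIs) and 65.5 CPM (158 UMIs), log2 ratios of 0.56 (0.41 to 0.71) and 0.51 (0.27 to 0.75). Prpf4b was at 174 CPM (932 UMIs) and 161 CPM (388 UMIs), log2 ratios of 0.59 (0.49 to 0.69) and 0.52 (0.36 to 0.67).

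**Figure D3:**
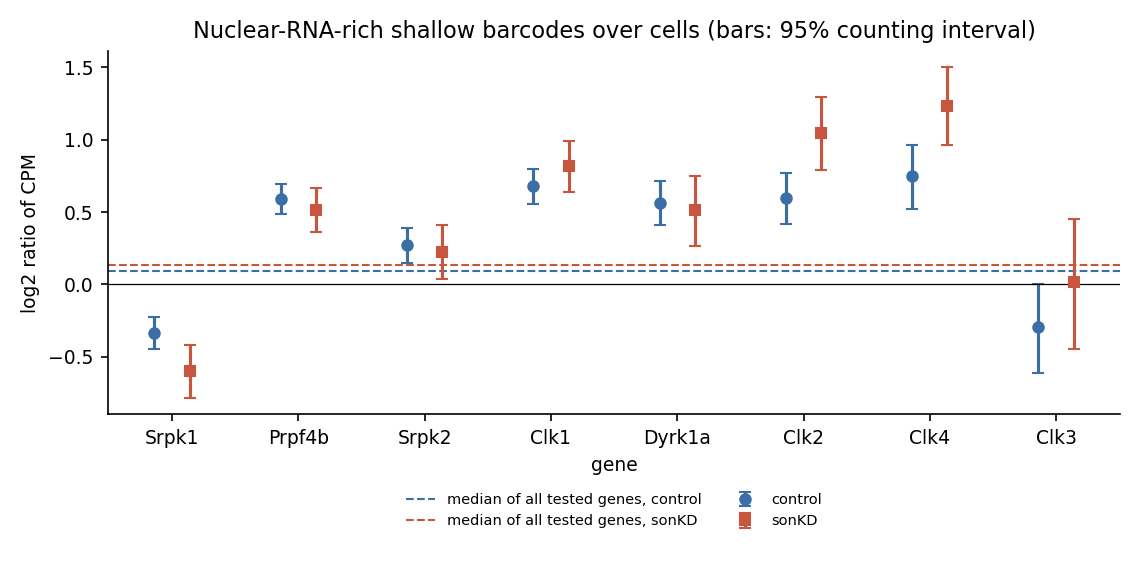
Log2 ratio of CPM in nuclear-RNA-rich shallow barcodes over cells for each kinase and library, with bars for the 95% counting interval and dashed lines at the median of all tested genes (0.09 in control, 0.13 in sonKD). Clk4, Clk1 and Clk2 lie highest in sonKD, at 1.23, 0.82 and 1.05, and Srpk1 lies below 0 in both libraries.

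Within the nuclear-RNA-rich barcodes, sonKD over control gave a wider spread among the kinases than cells did, on fewer UMIs. Clk4 was at 38.2 and 56.4 CPM in control and sonKD, a log2 ratio of 0.56 (0.24 to 0.88), and Srpk1 at 146 and 109 CPM, a log2 ratio of -0.42 (-0.63 to -0.22). These were the only 2 kinases past the size limit of 5 to 4, 1 higher and 1 lower, where 11.1% of all tested genes were higher and 17.0% lower. The other log2 ratios were 0.03 for Clk1, 0.10 for Clk2, 0.05 for Clk3, -0.15 for Srpk2, -0.24 for Dyrk1a and -0.11 for Prpf4b. The median over the 8 kinases was -0.04, beside -0.06 over all tested genes. These calls depended on the mitochondrial share. Barcodes of at most 10% numbered 386 in control and 222 in sonKD. There Clk3 (0.60), Clk1 (0.41), Clk2 (0.41) and Clk4 (0.35) were higher by the size limit, and Srpk1 (-0.99) and Srpk2 (-0.44) lower. Dyrk1a was at 0.06 there and the median of the kinases at 0.20. In control and sonKD, Clk3 rested there on 12 and 11 UMIs, Clk4 on 30 and 23 and Clk2 on 35 and 28. The share of all tested genes past the limit was not taken in these barcodes, so no count of kinases is read from them. In barcodes above 10% Clk4 was at 0.59, Srpk1 at -0.33 and Dyrk1a at -0.33. The log2 ratio of nuclear-RNA-rich barcodes over cells was higher in sonKD than in control by 0.45 for Clk2 (0.14 to 0.76) and by 0.49 for Clk4 (0.14 to 0.84), and differed by -0.26 for Srpk1 (-0.48 to -0.06). For the other 5 kinases the counting interval of that difference included 0. The spread of the difference over all tested genes was not taken. With the remaining shallow barcodes over cells the difference was 0.08 for Clk2, -0.15 for Clk4 and 0.12 for Srpk1. With barcodes at cell depth but above 10% mitochondrial UMIs it was 0.08, -0.17 and -0.20. Each of these intervals included 0.

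GENCODE M21 lists transcripts with a retained intron for each of the 8 kinases, and for 65.7% of the tested protein-coding genes (42.1% of all 21625 protein-coding genes in the files). There were 7 such transcripts for Clk1, 7 for Clk4, 6 for Srpk1, 4 for Clk2, 4 for Clk3, 3 for Srpk2, 2 for Prpf4b and 1 for Dyrk1a. Over the tested coding genes the median log2 ratio of nuclear-RNA-rich barcodes over cells went with that number. In control it was 0.01 for the 2707 genes with no such transcript, 0.10 with 1 to 3, 0.13 with 4 to 6 and 0.22 for the 230 genes with 7 or more, and in sonKD it was 0.05, 0.14, 0.21 and 0.30. In control 6 of the kinases lay above the median of their group: Clk1 (0.68) and Clk4 (0.75) with 7 such transcripts, Clk2 (0.59) with 4, and Srpk2 (0.27), Prpf4b (0.59) and Dyrk1a (0.56) with 3 or fewer. Srpk1 and Clk3 lay below the median of theirs. Among the kinases the ratio thus did not simply follow the number of such transcripts. The counts do not separate intron-containing from spliced RNA, so which form was counted was not measured.

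Other kinds of barcode gave further levels. Barcodes with at least 2500 UMIs and 1000 genes but above 10% mitochondrial UMIs numbered 625 in control and 1056 in sonKD. In them Prpf4b was at 203 and 184 CPM, Clk4 at 42.5 and 39.8 CPM, and Dyrk1a at 96.7 and 60.7 CPM in control and sonKD. Dyrk1a had its largest difference between libraries there, a log2 ratio of -0.67 (-0.96 to -0.39), against -0.19 in cells. Shallow barcodes under the Malat1 limit numbered 1746 and 1055. There Clk1 had its highest level, 172 and 145 CPM, whereas Srpk2 was at 60.7 and 57.7 CPM, below its level in cells. Clk1 was thus higher than in cells on both sides of the Malat1 limit, and Srpk2 above the limit but not under it. Clk4, Dyrk1a and Clk2 were also higher under the limit than in cells. Their log2 ratios there were 0.99, 0.72 and 0.56 in control and 0.84, 0.51 and 0.64 in sonKD. The rise of these kinases was thus not particular to nuclear-RNA-rich barcodes. Clk3, Srpk1 and Prpf4b lay below 0 under the limit in both libraries, as did 65.4% and 68.1% of all tested genes in control and sonKD. In control Clk3 (-0.01) and Prpf4b (-0.06) had counting intervals that included 0 and lay above the median of all tested genes (-0.24). In sonKD Clk3 was at -0.63 (-1.37 to 0.03), and Prpf4b at -0.31 was at the median of all tested genes (-0.31).

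Near-empty droplets, with 100 to 500 UMIs, give the level of RNA free in solution. The 8 kinases summed to 301 and 249 CPM there in control and sonKD, under the sums in cells. Dyrk1a was at 11 and 7.67 CPM, Clk2 at 9.04 and 4.61 CPM, Clk4 at 12.5 and 13.5 CPM, Clk3 at 12.0 and 10.6 CPM, Clk1 at 38.3 and 29.6 CPM, Srpk2 at 35.8 and 30.4 CPM, and Prpf4b at 57.2 and 49.2 CPM. Srpk1 was the kinase nearest to its level in cells, at 125 and 104 CPM. In control 7 and in sonKD 8 of the 8 kinases were at least 1.5-fold lower than in cells, where 61.6% and 64.6% of all tested genes were.

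**Figure D4:**
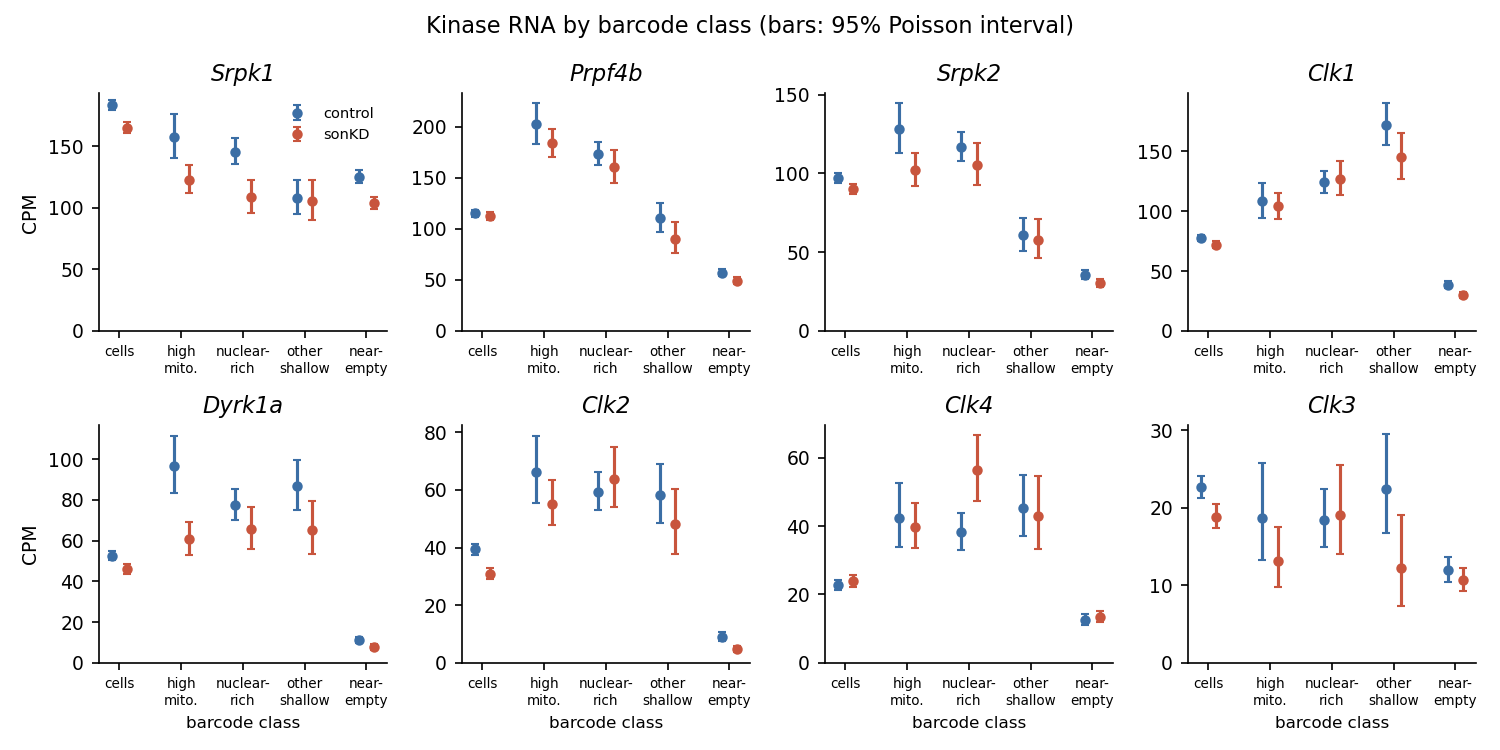
Level of each kinase (vertical axes, CPM, starting at 0, with a scale of its own per panel) in 5 kinds of barcode for control and sonKD, with bars for the 95% Poisson interval. Prpf4b and Srpk2 are high in high-mitochondrial and nuclear-RNA-rich barcodes, Clk1 is highest in the other shallow barcodes at 172 and 145 CPM, and every kinase has its lowest level in near-empty droplets, except Srpk1 in control.

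Dividing all shallow barcodes of each library into 4 equal groups by Malat1 share set the kinases further apart. From the lowest group to the highest, Srpk2 was at 53.0, 92.8, 116 and 127 CPM in control and at 44.1, 71.7, 94.6 and 124 CPM in sonKD. Prpf4b was at 97.9, 161, 157 and 190 CPM in control and at 84.5, 113, 139 and 183 CPM in sonKD. Both genes were thus lowest in the lowest group and highest in the highest group in each library. Clk1 showed no such order, at 175, 139, 113 and 135 CPM in control and 151, 129, 119 and 141 CPM in sonKD. Clk4 was at 45.5, 40.5, 36.0 and 40.4 CPM in control and at 23.3, 60.4, 50.5 and 64.4 CPM in sonKD, with sonKD below control in the lowest group and above it in the other 3. The lowest sonKD group rested on 19 UMIs of Clk4, and in the middle groups the counting intervals of the libraries overlapped.

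**Figure D5:**
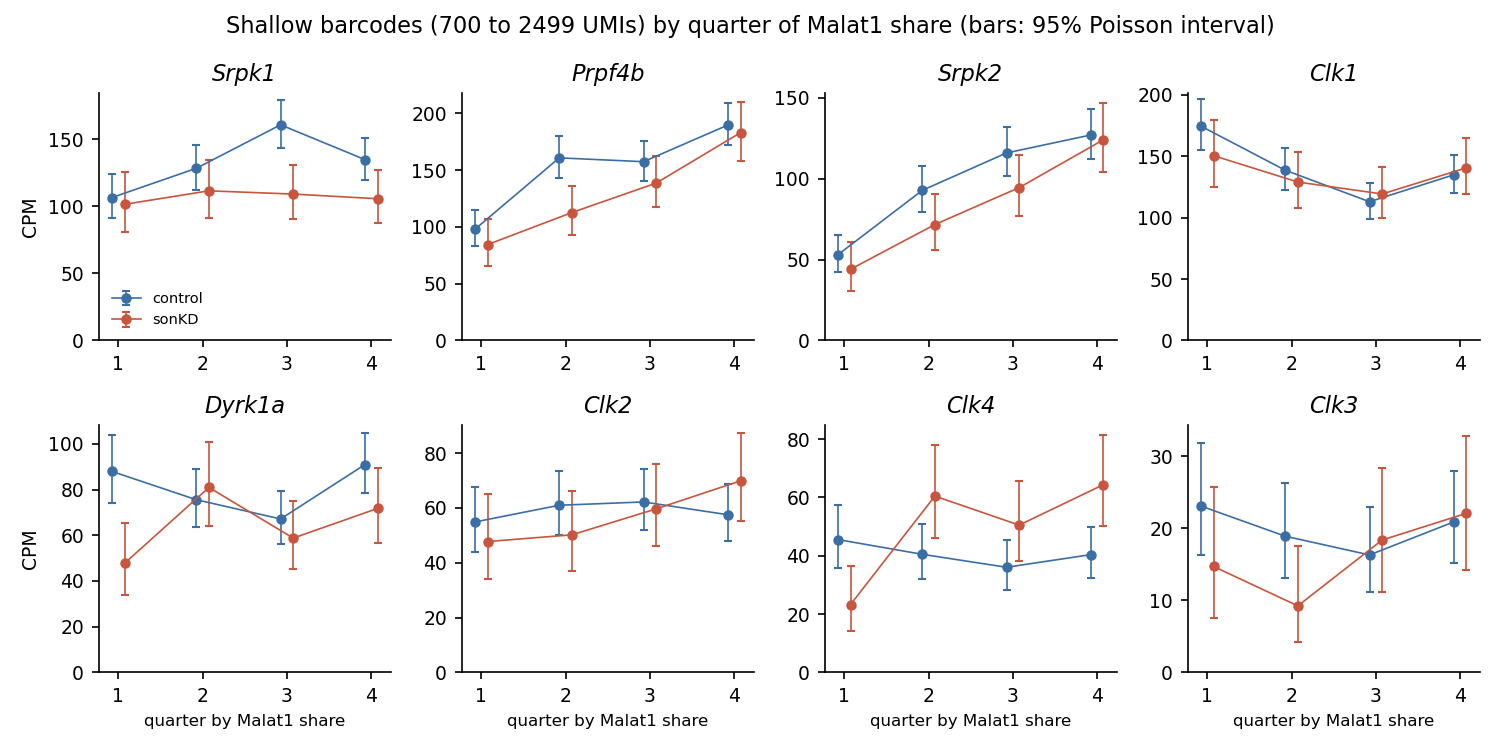
Level of each kinase (vertical axes, CPM, starting at 0, with a scale of its own per panel) in shallow barcodes of each library divided into 4 equal groups by Malat1 share (horizontal axes, lowest to highest), with bars for the 95% Poisson interval. Srpk2 goes from 53.0 to 127 CPM in control and from 44.1 to 124 CPM in sonKD, and Clk1 is highest in the lowest group, at 175 and 151 CPM.

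Within cells some of the kinases varied with the mitochondrial share of the cell and others did not. In cells with up to 2.5%, 2.5% to 5% and 5% to 10% mitochondrial UMIs, Clk1 was at 61.2, 74.4 and 104 CPM in control and at 56.3, 67.4 and 92.2 CPM in sonKD. Dyrk1a was at 38.8, 50.7 and 70.7 CPM in control and at 36.2, 43.8 and 55.9 CPM in sonKD. Srpk1 went the other way, at 198, 190 and 142 CPM in control and at 183, 170 and 140 CPM in sonKD. Prpf4b was at 114, 116 and 113 CPM in control and at 120, 115 and 102 CPM in sonKD. Clk2 was at 33.3, 37.8 and 51.5 CPM in control and at 23.3, 30.5 and 34.4 CPM in sonKD. Clk4 was at 20.7, 21.2 and 32.0 CPM in control and at 23.3, 22.4 and 29.8 CPM in sonKD. Srpk2 was flat, at 91.4, 99.2 and 89.7 CPM in control and 91.9, 89.9 and 90.3 CPM in sonKD. Clk3 was flat in control, at 22.2, 22.9 and 21.5 CPM. In sonKD Clk3 was at 22.6, 19.1 and 17.1 CPM, with overlapping counting intervals. Clk1, Clk2, Clk4 and Dyrk1a therefore had their highest levels, and Srpk1 its lowest, in the cells with the most mitochondrial RNA of each library. In sonKD the counting intervals of the lowest and highest groups overlapped for Clk2 and Clk4. Cell depth was not held equal between these groups, and no share over all tested genes was taken.

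The same cells were split by scored cell cycle phase after thinning each to 2500 UMIs. Of the control cells 2787 scored as S, 2059 as G2M and 132 as G1, and of the sonKD cells 1536, 1076 and 119. Srpk1 was at 178, 191 and 69.7 CPM in S, G2M and G1-scored cells of control, and at 160, 166 and 73.9 CPM in those of sonKD. Clk1 was at 79.1, 68.6 and 121 CPM in control and at 79.7, 83.6 and 118 CPM in sonKD. The G1-scored cells were few and unlike the rest, with median mitochondrial shares of 6.64% and 6.46% and median depths before thinning of 4132.5 and 6248 UMIs, and the part of these in the levels was not tested.

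Thinned cells were also split by Son UMIs. In control, cells with 0 and with 2 or more Son UMIs had Dyrk1a at 48.1 and 73.5 CPM, Clk2 at 37.8 and 43.1 CPM and Srpk1 at 178 and 187 CPM. In sonKD, the same cells had Dyrk1a at 50.2 and 44.4 CPM, Clk2 at 33.4 and 48.9 CPM and Srpk1 at 161 and 151 CPM. Only 343 control and 90 sonKD cells had 2 or more Son UMIs, and the higher Dyrk1a level in such cells of control was not seen in sonKD, where it rested on 10 UMIs.

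Few cells showed any given kinase at a common depth. With each cell thinned to 2500 UMIs, a UMI of Srpk1 was present in 35.2% (33.9% to 36.6%) of the control and 31.9% (30.2% to 33.7%) of the sonKD cells, against 71.0% and 77.8% without thinning. Clk2 was seen in 9.20% (8.41% to 10.0%) and 7.87% (6.89% to 8.95%), against 27.0% and 29.8% without thinning. Clk3, the rarest, was seen in 5.16% and 4.87%, against 16.3% and 19.3%. At least 1 of the 8 kinases was seen in 76.5% and 75.8% of thinned cells. For Clk1 the thinned draw gave 16.9% and 18.2%, which goes against its CPM, and the share expected over all possible thinnings was 17.7% and 16.9%, so no order is read from it. The files hold no cell type known to lack these genes, so no background share was available. The near-empty levels above are in CPM, a different measure, and cannot be set beside these shares.

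Related genes give the setting of the kinases. Of 11 kinase relatives (the remaining SRPK and DYRK genes, the HIPK genes and the transcription-linked kinases Cdk11b, Cdk12 and Cdk13), 6 averaged 10 CPM or more in cells, with a median log2 ratio of sonKD over control of -0.25. Hipk1, at 14.6 and 11.3 CPM (log2 ratio -0.37), and Hipk2, at 16.2 and 12.8 CPM (-0.34), were lower by the size limit of 5 to 4 or more. None was higher. Among all tested genes 10.2% were lower and 3.50% higher by that size. The shift of 0.090 that TMM factors bring would leave both short of the limit (0.32 on the log2 scale), and both levels were near the minimum of 10 CPM. Both encode nuclear kinases related to the DYRK family. Srpk3 had 2 UMIs in control and 1 in sonKD cells, so Srpk1 and Srpk2 made up nearly all SRPK RNA.

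Of 13 SR protein genes and their relatives, the substrates of these kinases, 12 passed, with a median of -0.16. Of these 11 were below 0, as were 74.9% of all tested genes. Srsf6, at 211 and 158 CPM (log2 ratio -0.42), was the only substrate past the size limit, where 10.2% of all tested genes were lower by it. Tra2a, a splicing activator with arginine and serine rich tails, was at least 1.5-fold higher in nuclear-RNA-rich barcodes than in cells in both libraries, with log2 ratios of 0.79 and 1.15, near those of Clk4. In sonKD Srsf11 (0.66) and Tra2b (0.62) were past that size too, which made 1 and 3 of 12 substrates higher by it in control and sonKD, where 15.9% and 23.0% of all tested genes were. At least 1.5-fold lower were 2 of the 12 in each library, where 12.4% and 15.1% of all tested genes were.

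All 6 genes of dephosphorylation and import passed, with a median of -0.10 and none past the size limit. Farthest from 0 were Ppp1cb, a catalytic subunit of protein phosphatase 1, at 80.0 and 67.6 CPM (log2 ratio -0.24), and Tnpo3, the import receptor of SR proteins, at 107 and 95.6 CPM (-0.16). The other protein phosphatase 1 subunits, Ppp1ca and Ppp1cc, had lower shares in nuclear-RNA-rich barcodes than in cells, with log2 ratios of -1.22 and -1.01 in control and -1.44 and -1.18 in sonKD. Of all tested genes 44.4% and 42.6% were below 0 in that comparison in control and sonKD. Of the 6 genes of dephosphorylation and import 5 and 4 were, with Tnpo3 at 0.24 and 0.21, and of the 8 kinases 2 and 1 were, Clk3 in sonKD being too close to 0 to place. Of 6 speckle scaffold genes and cofactors all passed, with a median of 0.02, and Son itself was the only gene past the size limit of 5 to 4.

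The genes most like each kinase were ranked by Pearson r of log2(CPM + 1) over 10 points, the 5 kinds of barcode in the 2 libraries, among 8055 candidates. Points of 1 library share its depth and handling, so r is a description. Clk4 was followed most closely by Rbm39 (r = 0.992), which encodes an SR-related splicing factor, and then by Traf6 and Zfp770. Clk1 was followed by Dlst, Atg2b and Uqcc1, Clk2 by Topbp1, Chd2 and Pald1, and Prpf4b by Parpbp, Plk4 and Cept1. Srpk2 was followed by Ppp1r9a, Bnc2 and Prex2, and Dyrk1a by Lin52, Ppp6r3 and Otud4. Clk3 and Srpk1 had the least close partners, Otud5 for Clk3 (r = 0.949) and Fbxo2 for Srpk1 (r = 0.966), followed by Mta1 and Ddx3x for Clk3 and Necap2 and Pycr1 for Srpk1.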

How the data were processed

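The deposited files hold raw counts of UMIs per gene and barcode, 1 matrix per library, which the authors made with Cell Ranger 7.1.0 on mm10, per the submitters' processing notes. The treatment of intronic reads is not given in the sources used here. The labels name different NextSeq models. Matrices hold 71046373 (control) and 60352438 (sonKD) UMIs over 1408944 and 1400093 barcodes, with no selection of cells.

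UMIs were summed over the barcodes of a class and divided by the class total to give CPM. Intervals at 95% are exact Poisson for counts, exact conditional binomial for log2 ratios and Clopper-Pearson for shares. They cover counting error only. Genes averaging 10 CPM or more over both libraries' cells were compared. Sizes of 5 to 4 (sonKD over control) and 1.5-fold (kinds of barcode) stand in for tests. Doublets were kept in the reported values: Scrublet in scanpy 1.11.5 marked 0.0603% and 0.0366% of cells, under the 0.5% taken as a working call. Ratios were checked on simulated data. Python ran numpy 2.4.6 and scipy 1.17.1, and scaling factors came from edgeR 4.0.16 and DESeq2 1.42.0, used for no test.

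Gene positions are from GENCODE M21 (GRCm38). Named genes are the 8 kinases, Son, members of 4 related lists past 5 to 4 in cells (or the 2 farthest from 0), and the 3 genes most like each kinase. Neat1, Kcnq1ot1, Srpk3, Tra2a, Tra2b, Srsf11, Ppp1ca and Ppp1cc were named after their values were seen. The kinases and all lists were chosen with earlier results of these data known.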

Additional observations from a re-analysis of the deposited data

Results flagged for a closer look

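Clk3 lay on opposite sides in the 2 libraries when nuclear-RNA-rich shallow barcodes were set against cells. Its log2 ratio was -0.295 in control and 0.0171 in sonKD. In sonKD it was below 0, as in control, over all shallow barcodes (-0.20), with the Malat1 limit at the median of cells (-0.19) and above 10% mitochondrial share (-0.14). The difference of 0.31 had a counting interval of -0.24 to 0.85, which includes 0. The difference was not tested, there being a single library on each side.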

How the results depend on the processing

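With 1 library per group no library could be left out, and differences between libraries of handling, depth or sequencing cannot be told apart from the siRNA. No paired analysis was possible because each group held 1 library. Of the values for single kinases under alternatives, 222 stayed within the counting interval, 10 of them with the other sign, 43 left it with the same sign and 7 left it with the other sign. In cells the kinases' median log2 ratio of sonKD over control was -0.0413 with TMM factors, -0.0464 with DESeq2 size factors and -0.0606 without mitochondrial and ribosomal protein genes, and Prpf4b was then 0.0547, 0.0496 and 0.0354. Clk2 was the 1 kinase lower by the size limit of 5 to 4, and 0 kinases were so under those 3 scalings, with mitochondrial limits of 5% or 25%, and in a single thinning to 2500 UMIs. In that thinning Clk1 was at 0.13, and over 20 thinnings, added after the data were seen, its mean was -0.06 (-0.16 to 0.05). The share of all genes higher by that limit was 22.1% with no filter and 5.27% from 50 CPM, and lower by it 17.0% and 7.05%. For nuclear-RNA-rich barcodes over cells, the kinases' median was 0.80 in control and 0.77 in sonKD with totals without mitochondrial genes and Malat1, and 0.95 in sonKD at a mitochondrial share of at most 10%. In sonKD the kinases at least 1.5-fold higher were then 6 at that share, 5 without mitochondrial and ribosomal protein genes and 5 without mitochondrial genes and Malat1. Kinases at least 1.5-fold lower in sonKD were 0 under a common Malat1 limit, above 10% mitochondrial share and under both of those totals. The share of all tested genes past 1.5-fold was not taken under these settings. These counts therefore have no background beside them and are not read as a stronger or weaker shift of the kinases. Srpk1 in control was 0.0131 at a share of at most 10%, and Srpk2 in sonKD was -0.0563 over all shallow barcodes. For sonKD over control in nuclear-RNA-rich barcodes at a share of at most 10%, the median was 0.20 and Dyrk1a 0.0617, and the median was 0.03 without mitochondrial and ribosomal protein genes. A change of total or scaling factor alone shifts all genes of a comparison by the same amount. It leaves each kinase's distance from the median of all genes as it was. The cause of the other moves was not tested.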
